A study of Mus musculus with 6 samples.

Results

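Mast cells and basophils are rare granulocytes of the bone marrow and tissues that carry the high-affinity receptor for IgE and store proteases and histamine in their granules. The 10 genes described here were chosen by name, with earlier results of these data known. Prss34, Mcpt8, Cpa3, Cma1 and Tpsb2 encode granule proteases, and Fcer1a and Kit encode surface receptors. Hdc encodes the enzyme that makes histamine, and Gata1 and Gata2 encode transcription factors. These 10 members are among 37074 gene names on the array and have 14 of its 56605 probes. RNA came from bone marrow cells of young adult mice that had been cultured with M-CSF and then induced with RANKL for 5 days, so every culture had received the osteoclast-forming cytokines. The groups were Ano1fl/fl littermates, which carry the floxed alleles without Cre, and Ctsk-Cre;Ano1fl/fl mice, in which the cathepsin K promoter drives Cre and Ano1 is therefore meant to be lost in osteoclasts rather than in mast cells, basophils or their precursors. Each group held 3 mice with 1 array each, and the strain of these mice is not given in the labels.

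In mouse cells, Mcpt8 and Prss34 are textbook basophil proteases, Cma1 and Tpsb2 are connective tissue mast cell proteases, and Cpa3 and Fcer1a are used by both lineages. The IgE receptor is built from an alpha chain (Fcer1a), which binds IgE, a beta chain (Ms4a2) and a gamma chain (Fcer1g), which is shared with other receptors of myeloid cells. Kit is the receptor of stem cell factor and is also carried by blood progenitors, while Gata1 and Gata2 also act in megakaryocytes and red cell precursors and Hdc is used by several myeloid cells.

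Between 33480 and 34951 of the 59305 transcript spots on an array were well above background, and the precision of all values is set by the few arrays. All 6 arrays lay on 1 slide and were scanned in 1 scan. The single probe of the targeted gene, Ano1, stayed near background throughout, with processed signals between 3.22 and 3.91, so it cannot check the labels. Every direction below follows the label of the arrays and would turn if the labels were exchanged. The labelled cell type was borne out by osteoclast markers, all 10 of which were above background on every array of at least 1 group. Arrays labelled Ctsk-Cre;Ano1fl/fl are called knockout arrays below, those labelled Ano1fl/fl control arrays, and all 10 osteoclast markers were higher on the knockout arrays on their brightest probes. Ctsk rose by 9.01-fold (adjusted p = 1.53e-05), Mmp9 by 20.5-fold (adjusted p = 2.05e-05) and Acp5 by 1.79-fold (adjusted p = 0.000227), all in limma. These directions are opposite to the one given in the study for osteoclast markers in cultured osteoclasts of the same genotypes, and whether the array labels were exchanged was not tested. A second probe of Nfatc1 was lower on the knockout arrays (-0.53, adjusted p = 0.0138 in limma's fit over probes), so that gene has no single direction. A level is a log2 processed signal after quantile normalization, and a difference is the mean of the knockout arrays minus that of the control arrays on this log2 scale.

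Most of the members that could be tested were lower on the knockout arrays. The largest falls were those of the proteases Cpa3 (8.08-fold), Prss34 (7.73-fold) and Mcpt8 (5.76-fold), followed by Fcer1a (3.63-fold), Gata1 (2.78-fold), Gata2 (2.08-fold) and Hdc (1.77-fold). Kit and Tpsb2 did not pass the test, and Cma1 was below background on all 6 arrays. In limma's test, 7 of the 9 members that could be tested were lower at an adjusted p under 0.05, against 29.0% of all 20645 genes tested. In the methods' t-test after adjustment, and in limma with no filter on dim probes, 5 were lower, since Prss34 and Mcpt8 lost their calls (adjusted p = 0.0597 and 0.0595 in the former, 0.0521 and 0.0519 in the latter). None of the 9 was higher, against 23.4% of all genes. The 7 genes are also those whose groups did not overlap, against 35.4% of all genes that were lower with no overlap. Of the 9, 6 were lower by more than 2-fold, against 7.19% of all genes. The median difference of the 9 tested members was -1.47, beside -0.06 over all genes tested. Bulk RNA cannot tell fewer cells of a type from less RNA per cell.

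**Figure D1:**
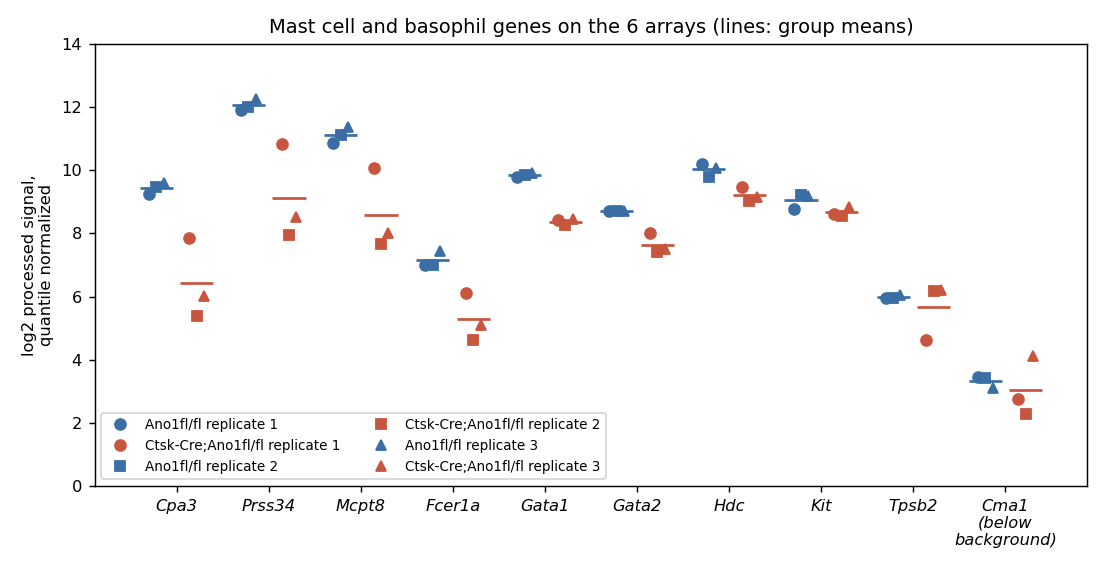
Level of each of the 10 genes (log2 processed signal, quantile normalized, vertical axis) on the 3 control arrays (blue) and the 3 knockout arrays (red), with 1 symbol per replicate and a line at each group mean. Control and knockout points do not overlap for Cpa3, Prss34, Mcpt8, Fcer1a, Gata1, Gata2 and Hdc, and knockout replicate 1 (red circle) lies well above the other two knockout arrays for the first 4 of these. Levels of different genes come from different probes and are not compared.

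Prss34, a tryptase-like serine protease secreted by basophils, had levels of 11.90, 12.00 and 12.27 on control replicates 1, 2 and 3 and of 10.85, 7.95 and 8.53 on knockout replicates 1, 2 and 3. All knockout arrays were below all control arrays, but the knockout arrays were far apart. The means were 12.06 ± 0.19 (SD, n = 3) and 9.11 ± 1.53 (SD, n = 3), and the difference was -2.95 ± 0.72 (SE; adjusted p = 0.0153, limma).

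Mcpt8, mast cell protease 8, which despite its name is made by mouse basophils, showed the same order of arrays. Its levels were 10.87, 11.11 and 11.37 on the control arrays and 10.07, 7.68 and 8.02 on the knockout arrays. The means were 11.12 ± 0.25 and 8.59 ± 1.29 (SD, n = 3 each), with a difference of -2.53 ± 0.62 (SE; adjusted p = 0.0152, limma).

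Cpa3, the carboxypeptidase stored with heparin in mast cell granules and also found in basophils, had levels of 9.24, 9.47 and 9.58 on the control arrays. On the knockout arrays the levels were 7.84, 5.39 and 6.01, again highest in replicate 1. The difference between 9.43 ± 0.18 and 6.41 ± 1.27 (SD, n = 3 each) was -3.01 ± 0.60 (SE; adjusted p = 0.00708, limma).

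Neither of the connective tissue mast cell proteases was called. Tpsb2, the tryptase mast cell protease 6, had levels of 5.94, 5.96 and 6.06 on the control arrays and of 4.62, 6.17 and 6.21 on the knockout arrays. Only knockout replicate 1 was below the control arrays, and the other two knockout arrays were above them. The difference of -0.32 did not pass the test (95% interval -1.35 to 0.71, adjusted p = 0.551, limma), and without knockout replicate 1 it was 0.20. Cma1, the chymase mast cell protease 5, did not rise well above background on the 6 arrays, with processed signals between 4.44 and 16.4, so it was not tested.

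Among the receptors, Fcer1a fell and Kit did not pass the test. Fcer1a had levels of 7.00, 7.00 and 7.45 on the control arrays and of 6.13, 4.63 and 5.11 on the knockout arrays. All knockout arrays were below the control arrays, with replicate 1 the highest of them, and the difference was -1.86 ± 0.38 (SE; adjusted p = 0.00778, limma). The brightest Kit probe had levels of 8.77, 9.21 and 9.18 on the control arrays and of 8.60, 8.54 and 8.85 on the knockout arrays. The groups overlapped, and the difference of -0.39 had a 95% interval of -0.75 to -0.02 before adjustment for the number of genes and an adjusted p of 0.0719 in limma. The other 2 Kit probes, both drawn from a single cDNA clone, were well above background on 2 and 1 of the control arrays and on none of the knockout arrays, and were not tested. Kit passed the threshold without control replicate 1, where its difference was -0.53 (adjusted p = 0.0176, limma).

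Both GATA factors were lower, with much less spread between arrays than the proteases. Gata1, which drives mast cell, eosinophil, megakaryocyte and red cell genes, had levels of 9.79, 9.84 and 9.91 on the control arrays and of 8.41, 8.27 and 8.44 on the knockout arrays. The knockout arrays lay close together, and the difference was -1.47 ± 0.08 (SE; adjusted p = 5.13e-05, limma). Gata2, which is needed for mast cells and basophils and for blood stem cells, had levels of 8.71, 8.70 and 8.70 on the control arrays and of 8.02, 7.40 and 7.52 on the knockout arrays. Its difference was -1.06 ± 0.16 (SE; adjusted p = 0.0026, limma).

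Hdc, histidine decarboxylase, is measured by 3 probes, all of which had a lower mean on the knockout arrays. The brightest gave levels of 10.21, 9.80 and 10.09 on the control arrays and of 9.46, 9.02 and 9.15 on the knockout arrays. The groups did not overlap, and the difference was -0.82 ± 0.16 (SE; adjusted p = 0.00565, limma). The other 2 Hdc probes were well above background on all control arrays and on 1 knockout array each. One of these had levels of 5.10, 4.90 and 4.94 on the control arrays and of 4.42, 4.11 and 4.07 on the knockout arrays, and the other ranged from 4.89 to 5.58 and from 4.02 to 5.42. Both passed the filter on dim probes only through the control arrays, so no fold or test of theirs is given. In a fit over 31848 probes, 8 of the 11 member probes tested were lower, against 30.6% of all probes. The 11 include both of these dim Hdc probes and the 8 include 1 of them.

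**Figure D2:**
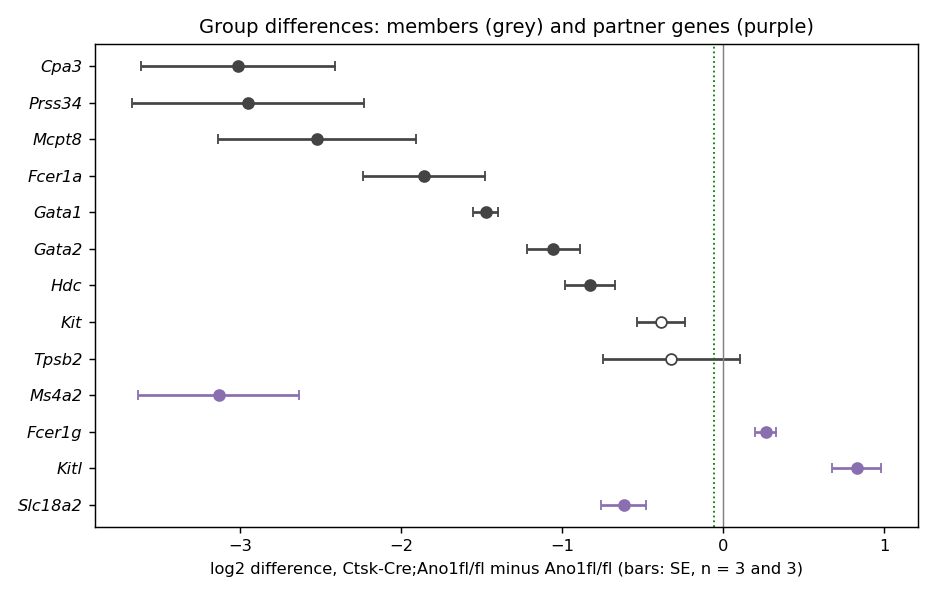
Difference of each tested member (grey) and of 4 partner genes (purple) between knockout and control arrays (log2, horizontal axis), with bars of 1 SE from limma (n = 3 and 3). Filled points passed an adjusted p under 0.05, and the dotted green line marks the median of all genes tested at -0.06. Prss34, Mcpt8 and Cpa3 have the widest bars of the called members, and Gata1 has the narrowest.

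In 6 of the 7 called members, replicate 1 was the highest of the knockout arrays, by amounts that ranged from small to large. Against the mean of the control arrays, Prss34 was lower by 2.32-fold on knockout replicate 1, by 17.3-fold on replicate 2 and by 11.5-fold on replicate 3. For Cpa3 the values were 3.01-fold, 16.4-fold and 10.7-fold, and for Mcpt8 they were 2.06-fold, 10.8-fold and 8.54-fold. Fcer1a was lower by 2.03-fold, 5.74-fold and 4.11-fold. Gata2 was lower by 1.61-fold, 2.46-fold and 2.27-fold, and Hdc by 1.49-fold, 2.02-fold and 1.84-fold. Gata1 was lower by 2.71-fold, 2.99-fold and 2.65-fold, so its highest knockout array was replicate 3. Knockout replicate 1 exceeded both other knockout arrays by more than 1 on the log2 scale in 51 of the 20645 genes tested (0.247%), and Prss34, Mcpt8, Cpa3 and Fcer1a were among these 51. The gap was larger than that of Prss34 (2.31) in 2 genes. Without knockout replicate 1 the folds rose to 14.1 for Prss34 (adjusted p = 0.000341), 13.3 for Cpa3 (adjusted p = 0.000389), 9.62 for Mcpt8 (adjusted p = 0.000389) and 4.85 for Fcer1a (adjusted p = 0.00149), all in limma. With normexp background correction the log2 differences shrank to -2.26 for Cpa3 (adjusted p = 0.000849, limma) and -0.99 for Fcer1a (adjusted p = 0.00147, limma), both still called.

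**Figure D3:**
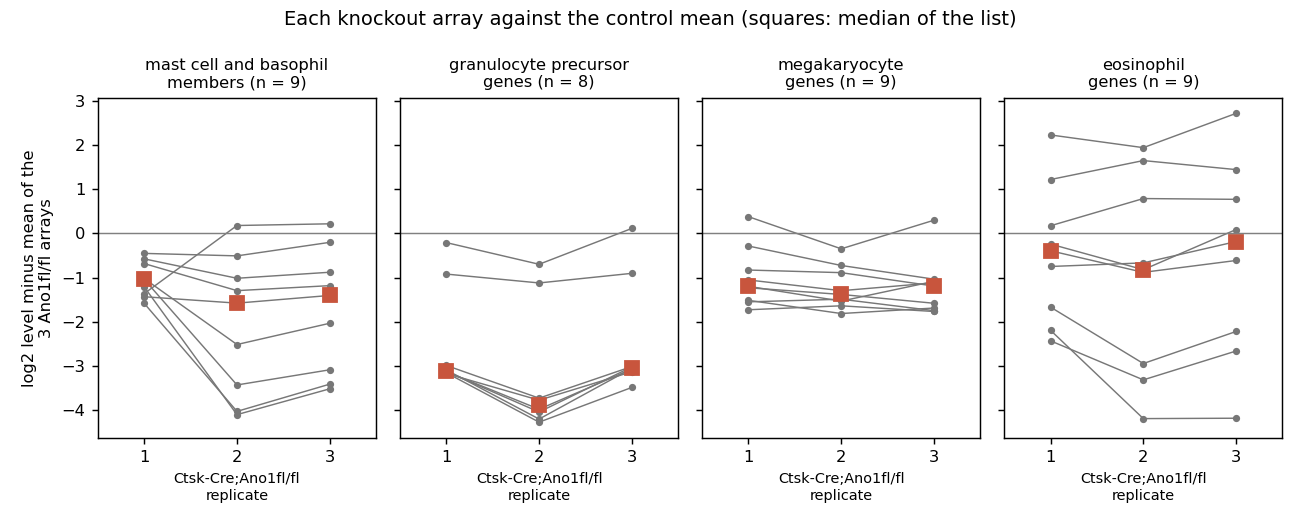
Level on each knockout array minus the mean of the 3 control arrays (log2, vertical axis) for the tested members and for the granulocyte precursor, megakaryocyte and eosinophil marker lists. Grey points are genes, a line joins the values of 1 gene and carries no order, and red squares are the median of the list. The members with the largest falls lie higher on replicate 1, while the granulocyte precursor genes have like values on replicates 1 and 3.

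Likeness of pattern was measured as the root mean square distance between profiles centred on their own mean, over the 6 arrays. Among named genes the nearest to Prss34 were Cpa3 (0.17), Mcpt8 (0.26) and Ms4a2 (0.32). The nearest to Cpa3 were Prss34 (0.17), Ms4a2 (0.17) and Mcpt8 (0.26), and the nearest to Mcpt8 were Prss34 (0.26), Cpa3 (0.26) and Pdzd4 (0.28). These lists name the same small set of genes for the 3 proteases, apart from Pdzd4. Fcer1a was nearest to Cdh1 (0.10), Ifnk (0.14) and Baiap3 (0.25). Gata1 was nearest to Apobec1 (0.02), Slc22a23 (0.05) and Snrnp25 (0.06), Gata2 to Nudt17 (0.05), Ly6f (0.07) and Rogdi (0.08), and Hdc to Gcm2 (0.06), Cfap46 (0.07) and Etl4 (0.07). The distance reads the size of the difference as well as the order of the arrays, so a small difference gives small distances. Ms4a2 was well above background on only 1 knockout array, and Pdzd4 and Ifnk had low mean levels already on the control arrays (5.65 and 4.43). Distances to these genes therefore rest partly on signals near background.

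The values above rest on these probes, shown for the 4 members with the largest falls as the first 30 of 60 bases, 5′ to 3′, as the array files give them. The probe of Prss34 lies at chr17:25436942-25437001 (mm9, plus strand), that of Mcpt8 at chr14:56701075-56701134 (minus strand), that of Cpa3 at chr3:20115674-20115733 (minus strand) and that of Fcer1a at chr1:175152865-175152924 (minus strand). No probe of a member shared a run of 20 bases with another probe on the array.
Prss34: tcttaaacctccctattctatggtagtgaa
Mcpt8: gctttatgccttggattcggaaaacaatga
Cpa3: gccaagtatatcctcaagaatacttcctaa
Fcer1a: attggctgctccttcagacatctgctgaca

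The promoters of the members were searched for the GATA motifs AGATAA and TGATAA and the E-box CAGCTG on both strands. The search ran from 250 bases before to 50 bases after each start (RefSeq, GRCm38.p6). The table held 11 such windows for 9 of the 10 members. A GATA motif was present in 3 of the 11 windows (27.3%), those of Prss34, Cpa3 and Fcer1a, and in 18.6% of all 32851 windows. Mcpt8 and the other members in the table held none. The E-box was present in Cpa3, Fcer1a and 1 window of Gata2, and in 16.3% of all windows. The first base of the GATA motif lay 31 bases before the start of Prss34, 46 before that of Cpa3 and 92 before that of Fcer1a. A match is only a run of letters and does not show a bound site. The 120 bases before the start of these genes are shown because they hold the GATA motifs, with motifs in capitals: chr17:25298274-25298393 (plus strand) for Prss34, chr3:20242182-20242301 (minus strand) for Cpa3 and chr1:173227230-173227349 (minus strand) for Fcer1a, where the capitals are the GATA motif on the opposite strand. In Cpa3 the first capitals are the E-box, at 59 bases before the start, and the second the GATA motif. The E-box of Fcer1a, 158 bases before the start, lies outside the stretch shown.
Prss34: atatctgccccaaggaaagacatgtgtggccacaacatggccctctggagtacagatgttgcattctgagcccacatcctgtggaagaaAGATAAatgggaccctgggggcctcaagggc
Cpa3: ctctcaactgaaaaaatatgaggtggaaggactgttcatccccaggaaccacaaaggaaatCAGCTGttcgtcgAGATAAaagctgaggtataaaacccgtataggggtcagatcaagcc
Fcer1a: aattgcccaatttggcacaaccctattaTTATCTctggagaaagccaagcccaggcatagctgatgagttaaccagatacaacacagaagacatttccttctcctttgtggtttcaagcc

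The protease members other than Cpa3, which lies on chromosome 3, sit in gene clusters, and their neighbours did not move as a block. The chymase locus on chromosome 14, taken from Cma1 to Gzmb in the reference, holds 17 genes, of which 9 were below background on all arrays, among them Cma1, Mcpt1, Mcpt2, Mcpt4 and Mcpt9. Of the 8 tested genes, 2 were lower, the neighbours Mcpt8 and Ctsg, where 29.0% of all genes tested were lower and 23.4% higher. Ctsg, cathepsin G of neutrophil and monocyte granules, fell by 3.40 on the log2 scale (SE 0.26, adjusted p = 0.000177, limma). In the same locus 4 genes were higher, including the granzymes Gzmc (3.78, SE 0.39, adjusted p = 0.000562) and Gzmb (1.72, SE 0.41, adjusted p = 0.0145), whose call was lost in the methods' t-test (adjusted p = 0.0568). Gzme was below background on the control arrays and at least 8.54-fold higher on the knockout arrays, and near-identical granzyme genes can share signal on a probe. The tryptase locus on chromosome 17 holds 6 genes from Prss34 to Tpsg1. Prss34 and its neighbour Prss28 (-0.60, SE 0.14, adjusted p = 0.0135) were lower, Tpsb2 did not pass the test, and Prss29, Tpsab1 and Tpsg1 were below background on all arrays. Tpsab1 is a transcribed pseudogene in the C57BL/6J reference.

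**Figure D4:**
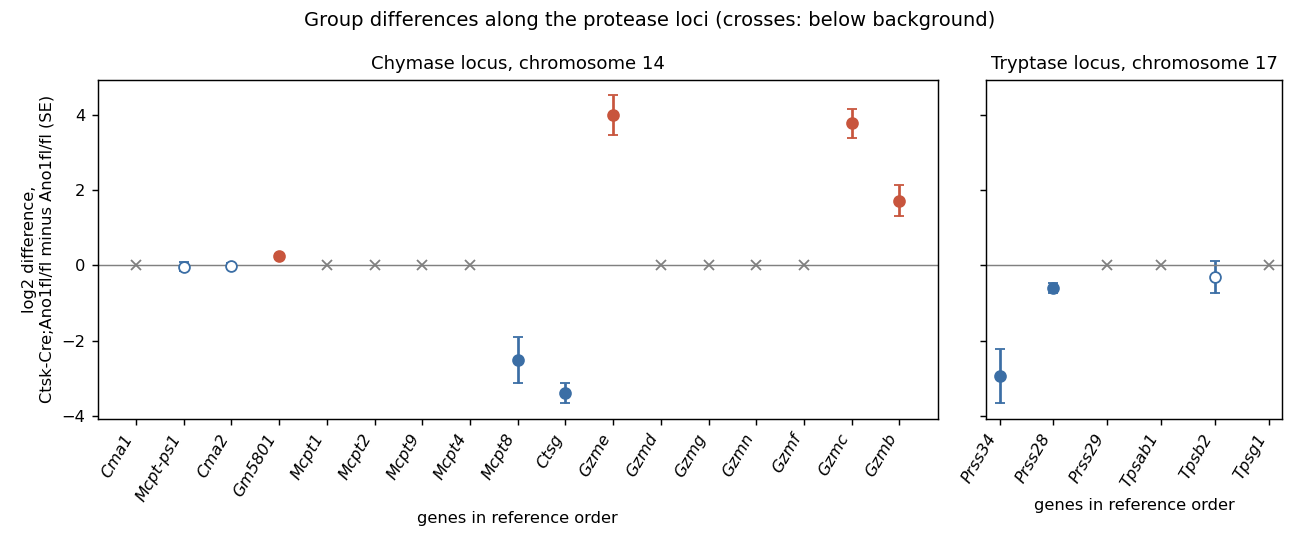
Difference between knockout and control arrays (log2, SE bars, n = 3 and 3) for the genes of the chymase and tryptase loci, placed in the order of the reference and not to scale. Blue points are lower and red points higher, filled points passed an adjusted p under 0.05, and crosses mark genes below background. In the chymase locus Mcpt8 and Ctsg lie below 0 and Gzme, Gzmc and Gzmb above it.

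A wider set of 78 genes in 6 lists placed the members among their pathways. Of the 64 that could be tested, 20 were lower and 25 higher on their brightest probes, where 29.0% and 23.4% of all genes were. The median difference was -0.06, equal to that of all genes tested. Without any normalization between arrays, 24 were lower and 15 higher, and the median of all genes tested was -0.30. For all genes the split then went from 5987 lower and 4839 higher to 6989 lower and 2564 higher.

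Among granule proteases and granule matrix genes, 3 of the 4 tested were lower and 1 was higher, where 29.0% and 23.4% of all genes were. The falls were those of Ctsg, of Ndst2, an enzyme of heparin synthesis (-0.79, SE 0.12, adjusted p = 0.00286), and of Srgn, the core protein serglycin on which granule heparin is built (-0.87, SE 0.12, adjusted p = 0.00186). The other 2 Srgn probes did not pass the test, and the call was lost with the mean of all probes (-0.30, adjusted p = 0.075). The rise was that of Gzmb, and the remaining 6 genes of the list, including Tpsab1 and Mcpt4, were below background on all arrays.

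In the list of IgE receptor subunits and signalling, the beta chain fell with the alpha chain while the gamma chain did not. Ms4a2 had levels of 7.18, 7.51 and 7.72 on the control arrays and of 5.47, 3.46 and 4.06 on the knockout arrays, where it was well above background on 1 of the 3. All knockout arrays were below all control arrays, and the highest knockout array was again replicate 1. Ms4a2 passed the filter on dim probes only through the control arrays, so no fold or test of it is given. Its difference of -3.13 (SE 0.50) rests partly on signals near background. The size of this difference moved with the processing, to -1.49 with normexp background correction and to -1.99 in the series matrix values. Fcer1g, the shared gamma chain, had levels from 16.98 to 17.08 on the control arrays and from 17.27 to 17.34 on the knockout arrays. It was higher by 0.26 (SE 0.07, adjusted p = 0.0173), a call that was lost with scaling to the 75th percentile (0.21, adjusted p = 0.118), without normalization (0.04, adjusted p = 0.842), without control replicate 3 (0.23, adjusted p = 0.0578) and without knockout replicate 1 (0.25, adjusted p = 0.0522). Of the 14 tested genes of the list, 3 were lower, Ms4a2 among them, and 8 higher, where 29.0% and 23.4% of all genes were. The rises included the kinase Fyn (1.13, SE 0.08, adjusted p = 0.000133) and the adaptor Lat (1.12, SE 0.15, adjusted p = 0.00149), and the falls included the kinase Btk (-0.63, SE 0.08, adjusted p = 0.00143). These signalling genes are used by many blood cells.

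In stem cell factor and IL-3 signalling, 1 of 9 tested genes was lower and 4 were higher, where 29.0% and 23.4% of all genes were. Kitl, the ligand of Kit, rose on its brightest probe (0.83, SE 0.15, adjusted p = 0.00513), and its other 2 probes were at or below background on most arrays. With the mean of all probes the call was lost (0.27, adjusted p = 0.354). Cish, a feedback inhibitor of cytokine signalling, rose by 1.81 (SE 0.11, adjusted p = 8.54e-05). Il3ra, the alpha chain of the IL-3 receptor, was lower by a small amount (-0.44, SE 0.12, adjusted p = 0.0215), and this call was lost without control replicate 1 (-0.37, adjusted p = 0.064) or replicate 3 (-0.44, adjusted p = 0.0553), with the mean of all probes (-0.30, adjusted p = 0.0931) and in the methods' t-test (adjusted p = 0.0533). Of the markers of stromal cells and osteoblasts, cells known to make stem cell factor, 6 of the 9 tested were higher and 2 were lower. The falls were those of Lepr (-0.69, adjusted p = 0.0117, limma) and Runx2 (-0.46, adjusted p = 0.0494, limma), and Sp7 did not pass the test. The summed signal of the list was 1759 to 2367 on the control arrays and 27089 to 44668 on the knockout arrays. On the knockout arrays most of it came from Col1a1 and Col1a2 (mean log2 levels of 13.16 and 14.13). The part of stromal cells in the rise of Kitl was not tested.

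Among histamine, prostaglandin D2 and leukotriene genes, 7 of 12 tested were lower and 2 higher on their brightest probes, where 29.0% and 23.4% of all genes were. The 2 higher were Hpgds and Hrh3. Alox5, the 5-lipoxygenase of leukotriene synthesis (-1.44, SE 0.15, adjusted p = 0.000569), and Ptgs1, cyclooxygenase 1 (-1.20, SE 0.12, adjusted p = 0.000427), showed the largest falls. When its probes were averaged, the difference of Ptgs1 was -1.80 (adjusted p = 0.00606, limma). Slc18a2, the transporter that loads histamine into vesicles, was lower by 1.54-fold (-0.62, SE 0.14, adjusted p = 0.0115), in the same direction as Hdc. Hpgds, a prostaglandin D synthase, rose by 0.70 (SE 0.09, adjusted p = 0.00107). The brightest probe of the histamine receptor gene Hrh3 was below background on all control arrays and at least 29.5-fold higher on the knockout arrays, but the other Hrh3 probe was 1.35-fold lower (adjusted p = 0.0119 in the fit over probes), so the gene has no single direction.

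Of 14 transcription factors of the lineage, 5 were lower and 3 higher, where 29.0% and 23.4% of all genes were. Nfe2 (-0.95, SE 0.10, adjusted p = 0.000678) and Tal1 (-0.83, SE 0.11, adjusted p = 0.00156), which act with GATA factors in blood precursors, were lower. Ldb1 (-0.06, adjusted p = 0.58) and Lmo2 (-0.08, adjusted p = 0.388), which bind GATA factors in the same complexes, did not pass the test. Zfpm1, which encodes the GATA cofactor FOG-1, rose by 1.16 (SE 0.18, adjusted p = 0.00288), and Cebpb rose by 0.55 (SE 0.11, adjusted p = 0.00773), a call lost without normalization between arrays (0.26, adjusted p = 0.174).

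Of 11 tested type 2 cytokines and surface markers, 1 was lower and 7 were higher, where 29.0% and 23.4% of all genes were. Il6, a cytokine made by mast cells and by many stromal and myeloid cells, rose by 4.49 (SE 0.08, adjusted p = 2.68e-06), and the activation marker Cd69 rose by 2.79 (SE 0.25, adjusted p = 0.000344). The adenosine receptor Adora3 fell by 0.68 (SE 0.10, adjusted p = 0.00251). The probes of Il1rl1, the receptor of the cytokine IL-33, disagreed. The brightest was counted as not called (-0.50, adjusted p = 0.0535 in the fit over probes). Another was below background on all control arrays and at least 4.26-fold higher on the knockout arrays. That probe passed the filter only through the knockout arrays, so no test of it is given, and the gene is given no single direction. The mast cell receptors Mrgprb1 and Mrgprb2 and the cytokine Il5 were below background on all arrays. Most markers of stromal cells and osteoblasts were also higher, as given above, and the part of these cells in the rise of Il6 was not tested.

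**Figure D5:**
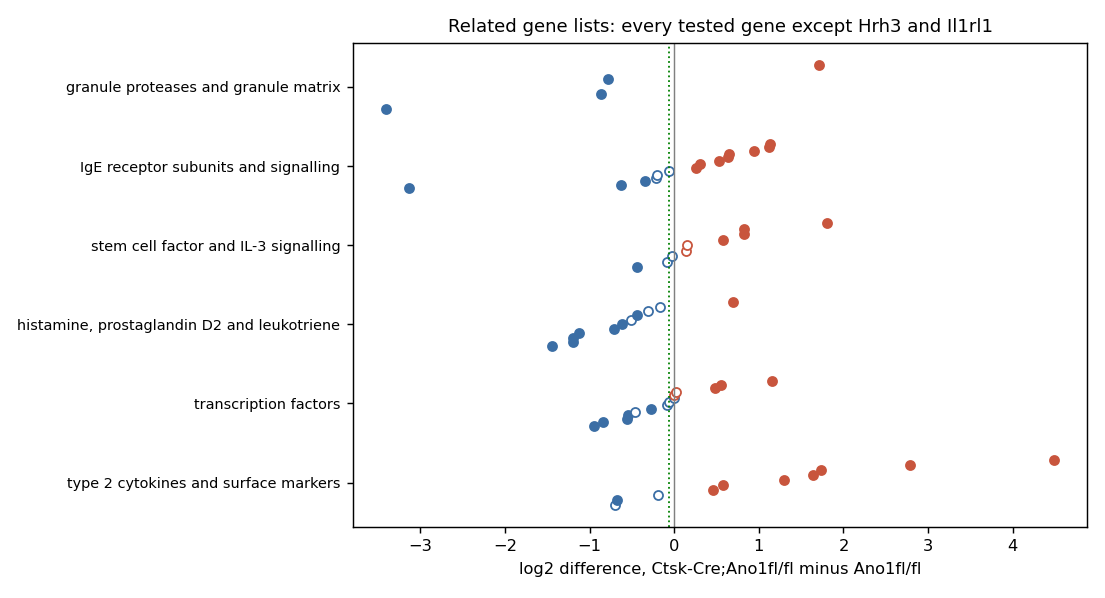
Difference between knockout and control arrays (log2, horizontal axis) for every tested gene of the 6 related lists except Hrh3 and Il1rl1, whose probes disagree. Blue points are lower and red points higher, filled points passed an adjusted p under 0.05, and the dotted green line is the median of all genes tested. Ctsg and Ms4a2 are the only points below -3, and Il6 lies farthest to the right. The place of Ms4a2 is not exact, since it was well above background on only 1 knockout array.

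Marker lists of 3 other blood cell types were mostly lower, as the members were. Over all genes tested, 29.0% were lower and 23.4% higher. Of the granulocyte precursor genes, 7 of 8 were lower, and their summed signal (normalized, linear scale) was 130713 to 145042 on the control arrays and 11625 to 20364 on the knockout arrays. Mpo made up the largest part of these sums, with mean log2 levels of 16.03 on the control arrays and 12.63 on the knockout arrays. Of the megakaryocyte genes, which share Gata1 and Gata2 with mast cells, 8 of 9 were lower and none was higher, with sums of 127234 to 145654 and 55308 to 64140. Most of the megakaryocyte sums came from Pf4, with mean log2 levels of 16.85 on the control arrays and 15.69 on the knockout arrays. Of the genes of stem and progenitor cells, which also use Kit and Gata2, 5 of 8 tested were lower and none was higher, with sums of 75955 to 83071 and 18219 to 29463. Most of these sums came from 1 gene, Ly6a, with a log2 level of 16.19 ± 0.07 (SD, n = 3) on the control arrays and of 14.45 ± 0.40 (SD, n = 3) on the knockout arrays. The summed signal of the 10 members was 9432 to 11656 on the control arrays and 1964 to 4939 on the knockout arrays. Of 12 erythroid genes, 5 could be tested, of which 2 were lower and 1 higher, with sums of 7936 to 10227 and 13822 to 15540. The transferrin receptor Tfrc, which other dividing cells use too, rose by 5.16-fold, the globin Hba-a1 fell by 2.13-fold and Epor fell by 1.45-fold, and the defining genes Klf1, Alas2, Ahsp and Rhag were below background on every array. Of the 7 macrophage genes 3 were lower and 1 was higher, with sums of 336750 to 345297 and 348741 to 390351. Sums of the osteoclast genes were 146418 to 158914 and 498914 to 562106. Of 5 tested endothelial genes 2 were lower and 1 was higher (sums of 6111 to 7722 and 2923 to 3517), and of 4 tested melanocyte genes, a lineage that also uses Kit, none was lower and 1 was higher (sums of 92.4 to 104 and 105 to 121). The part of these cells in the falls of Gata1, Gata2, Hdc and the proteases was not tested.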

How the data were processed

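RNA of 6 cultures was hybridised to Agilent one-colour mouse arrays. The authors deposited the scanner intensities of every spot, read with Agilent Feature Extraction 10.7.1.1 per the labels and not normalized between arrays, with probe positions in mm9. Their series matrix holds the median intensities of the spots. Processed signals were taken to log2, quantile normalized over the 6 arrays as the methods state, with outlier spots missing, and averaged per probe. A gene was represented by its brightest probe and tested where that probe was well above background (at least 0.5 of its spots) on all 3 arrays of a group, which held for 20645 genes. Groups were compared with limma 3.58.1 in R 4.3.3, with Benjamini-Hochberg adjustment over all genes tested, and the pipeline was tested on simulated data. A fold of at least a given size sets the brighter mean against the lowest signal well above background.

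The members and lists were chosen with earlier results of these data known. Named genes were all members, the 2 largest rises and falls per related list (called, no overlap, above background on the brighter group), 6 partner genes, and the 3 nearest named genes per called member. Other genes were named outside this rule, after their values were seen. These were Ctsk, Mmp9, Acp5, Il1rl1, Ly6a, Pf4, Mpo, Ndst2, Ldb1, Lmo2, Nfatc1, Lepr, Runx2, Sp7, Col1a1, Col1a2, 3 erythroid genes, the genes of the loci, genes listed as below background and the eosinophil genes. All 11 member probes with a RefSeq accession in the gene reference carried the same symbol there. Plots used matplotlib 3.10.9.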

Additional observations from a re-analysis of the deposited data

How the results depend on the processing

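The 17 alternatives for genes were another scaling (75th percentile), normexp background correction, the series matrix values, no filter or a filter on all 6 arrays, the mean of all probes, the methods' t-test, limma with trend and robust settings, a replicate block, outlier spots kept, each array left out, and, chosen after seeing the data, no normalization between arrays. Members called lower numbered 5 to 8, none was called higher under any of them, and member probes called lower numbered 6 to 9 under the 15 of them run on probes. Cpa3, Fcer1a, Gata2, Hdc and Gata1 passed the threshold under all 17, but with normexp background correction the differences of Cpa3 (-2.26) and Fcer1a (-0.99) were smaller by over 1.5 times in fold. The differences of Prss34 (-2.95) and Mcpt8 (-2.53) lost their calls with no filter on dim probes (adjusted p = 0.0521 and 0.0519) and in the methods' t-test (0.0597 and 0.0595); over their 17 alternatives the adjusted p ran from 0.000341 to 0.0597 and from 0.000389 to 0.0595. The methods' t-test gave 6348 lower and 5193 higher genes at its unadjusted threshold and 5260 and 4414 after adjustment, with 7 and 5 members lower. Kit was called with the mean of all probes (-0.78, adjusted p = 0.0203), and with single arrays left out its difference ran from -0.53 to -0.31. Tpsb2 changed sign with arrays left out, from -0.59 to 0.20, and was called under none of the 17. Related genes called higher fell to 15 without normalization between arrays. The cause of these changes was not tested. Replicate numbers are shared only as numbers (correlations of deviations 0.00, -0.06 and -0.08); with a replicate block, 7 members stayed lower, and over all genes 5079 were lower and 4200 higher. With 3 mice in each group and 1 array per mouse, p-values set a group difference against the spread between these cultures. That spread mixes differences of mouse, culture and array.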

Other observations

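Eosinophils also depend on GATA1, and their marker list did not move in 1 direction: of 9 tested genes, 5 were lower and 2 higher on the knockout arrays, with summed signals of 3489 to 3854 on the control arrays and 1990 to 2295 on the knockout arrays. Over all genes tested, 29.0% were lower and 23.4% higher. The granule proteins Prg2 (-2.28, SE 0.31, adjusted p = 0.00166, limma) and Prg3 (-2.81, SE 0.22, adjusted p = 0.000205) fell, and eosinophil peroxidase, Epx, was at least 3.73-fold lower and below background on all knockout arrays. The receptors Il5ra (2.30, SE 0.20, adjusted p = 0.00028) and Ccr3 (1.44, SE 0.14, adjusted p = 0.000385) rose.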
